A study of Mus musculus with 12 samples.

Results

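Sox proteins are transcription factors that bind DNA through a domain of the high-mobility-group type, and the subgroups SoxB1, SoxC, SoxD and SoxE mark successive steps of the glial lineages. SoxB1 proteins keep neural progenitors undifferentiated, SoxC proteins act in young, still differentiating cells, SoxD proteins hold oligodendrocyte precursors back from maturation, and SoxE proteins specify glia and, in oligodendrocytes (OLs), switch on myelin genes. Within SoxE, Sox9 stays on in astrocytes and is lost as OLs mature, whereas Sox10 is kept through the OL lineage. The 10 genes described here were taken by symbol from the count table: Sox1, Sox2 and Sox3 (SoxB1), Sox4 and Sox11 (SoxC), Sox5 and Sox6 (SoxD), and Sox8, Sox9 and Sox10 (SoxE). They are 10 of 56860 named genes, and all 10 passed the filter on low counts that left 16600 genes for testing.

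The cells were primary OLs of C57BL/6J mice, cultured, differentiated and exposed for 48 h either to siEgr2, an siRNA against the transcription factor gene Egr2, or to a scrambled siRNA (siNC), with 6 libraries in each group. The labels give medial prefrontal cortex as the tissue, while the study's methods describe cells from the cortex of newborn mice enriched with beads against O4, a surface antigen of the OL lineage, and its text names the reagent as an siRNA in one place and as an interfering plasmid in another. Nothing states that the libraries of a group came from separate cultures, so the p-values measure only the spread between these samples, which may be technical. The siEgr2 libraries were closest to each other in pairs (replicates 1 and 2, 3 and 5, 4 and 6). The 6 may thus hold fewer independent samples, and p-values that count them as 6 may be too small. Total counts ran from 28682946 to 39383014 in the siNC libraries (median 31277547) and from 8034251 to 16683677 in the siEgr2 libraries (median 13932447). The ribosomal RNA gene Rn18s-rs5 took between 0.142% and 1.05% of the counts in siNC and between 10.5% and 16.5% in siEgr2. Depth and ribosomal share differed between the groups without overlap, and their part in any difference between the groups cannot be told apart from that of the treatment.

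Egr2 itself was read first because it checks the labels of a knockdown. Its level, in CPM (counts relative to library size) scaled by trimmed means of M-values (TMM), lay between 3.89 and 7.06 in siNC (median 5.19; 119 to 295 counts) and between 2.22 and 4.86 in siEgr2 (median 3.93; 30 to 65 counts). The siEgr2 libraries were lower on average, but the groups overlapped. Its log2 fold change of -0.51 (SE 0.21) had an adjusted p of 0.0981 (quasi-likelihood test of edgeR, adjusted by Benjamini and Hochberg's method) and was not called. Scaled by library size only, where the median of all genes tested was -0.18, the difference was -0.70 with an adjusted p of 0.0144 (range over all alternatives 0.0144 to 0.214). Egr2 was thus low in both groups. With TMM the 95% interval of its log2 fold change ran from -0.95 to -0.071 (unadjusted p = 0.0255, edgeR). Its difference did not pass the test after adjustment over all genes tested.

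Between the groups, 1 of the 10 Sox genes was called lower in siEgr2 and 0 were called higher, a call being an adjusted p under 0.05 with a log2 fold change beyond 0.5 in either direction (edgeR). Over all 16600 genes tested, 5.08% were called lower and 2.63% higher. The called gene was Sox1. DESeq2 and limma-voom also called 0 of the 10 higher, and at an unadjusted p under 0.05 there were 6 higher and 2 lower. At the adjusted p alone, 5 of the 10 were higher (Sox4, Sox6, Sox8, Sox10 and Sox11) and 2 were lower (Sox1 and Sox9), against 8.57% and 11.3% of all genes tested. In these same 7 genes the groups did not overlap in any library, as in 11.2% of all genes tested in either direction. Sox2, Sox3 and Sox5 passed neither threshold. The median log2 fold change of the 10 genes was 0.11, and that of all genes tested was 0.00.

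Scaling by library size only put the median over all genes tested at -0.18 on the log2 scale, and values under it are read relative to that shift. Sox8 (-0.038), Sox10 (-0.022), Sox2 (-0.10), Sox3 (-0.13) and Sox5 (-0.13) were below 0 there and above that median, none of them past the adjusted p. Relative to the median, Sox8 was at 0.14 and Sox10 at 0.16, as they were with TMM. Sox4 (0.023) and Sox6 (0.068) lost the adjusted p. Relative to the median they were at 0.20 and 0.25, as they were relative to it with TMM. Sox11 passed the adjusted p at 0.17 (adjusted p = 0.0121, edgeR). Sox9 passed the fold threshold at -0.58, which was -0.40 relative to the median. RLE (relative log expression) and upper-quartile scaling gave each of the 10 genes the sign it had with TMM. Of all calls, 34.1% were higher and 65.9% lower with TMM, and 12% and 88% with library size only. With the listed structural RNA genes left out before scaling by library size, an alternative chosen after seeing the data, the median of all genes was 0.03 and each of the 10 Sox genes had the sign it had with TMM and was on the same side of the adjusted p.

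**Figure D1:**
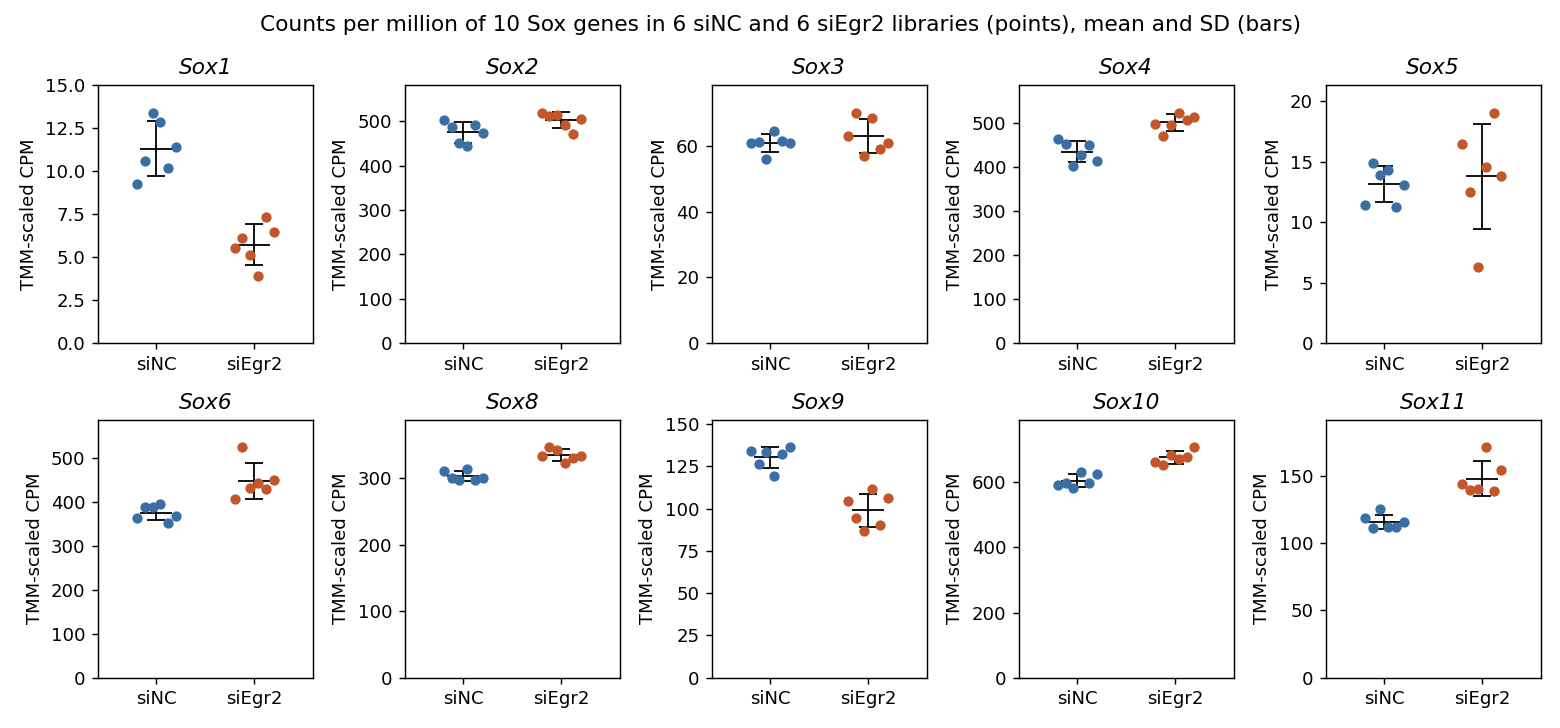
TMM-scaled CPM of the 10 Sox genes in each of the 6 siNC and 6 siEgr2 libraries (points), with the group mean and SD (bars); each vertical axis starts at 0. Sox1 and Sox9 are lower in every siEgr2 library than in any siNC library, and the points of Sox2, Sox3 and Sox5 overlap.

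**Figure D2:**
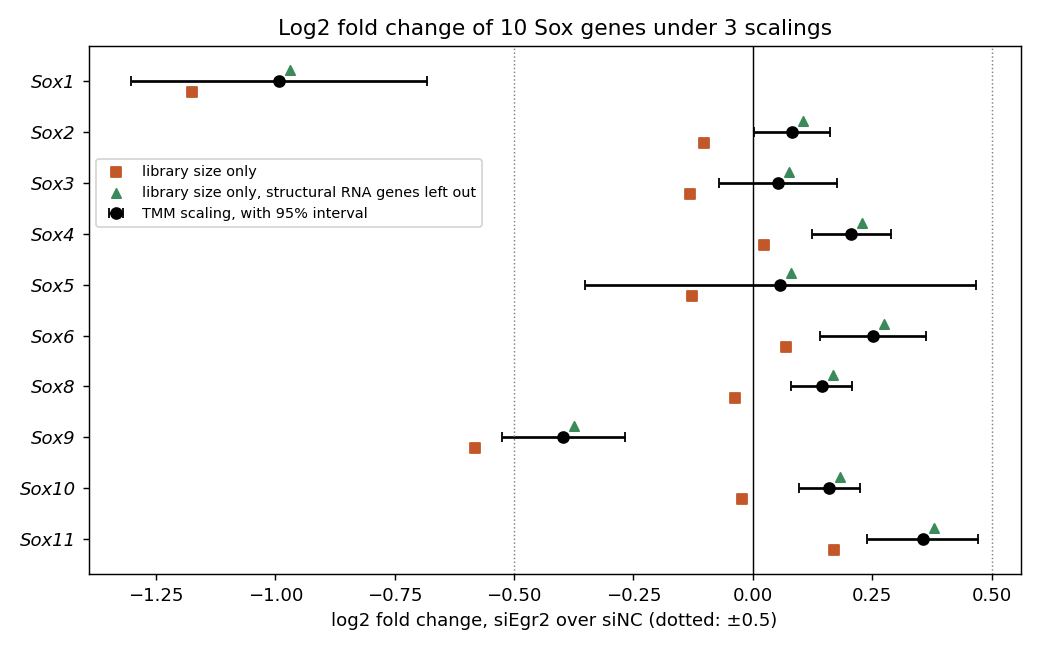
Log2 fold change (siEgr2 over siNC) of the 10 Sox genes under TMM scaling with its 95% interval (circles), under library size only (squares), and under library size only with structural RNA genes left out (triangles). Sox1 lies at -0.99 under TMM and Sox9 at -0.40, and Sox2, Sox3, Sox5, Sox8 and Sox10 are above 0 under TMM and below 0 under library size only, where the median of all genes tested is -0.18.

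Levels of the Sox genes were compared with each other only per length, as CPM per kilobase of annotated exon. In siNC, Sox2 was highest at 231 ± 11.4 (SD, n = 6) and Sox10 next at 198 ± 6.33. Sox8 (97.1 ± 2.25) and Sox4 (90.7 ± 4.95) followed with overlapping ranges, then Sox9 (31.5 ± 1.5) and Sox3 (29.5 ± 1.33), which also overlapped. Sox6 (25.4 ± 1.15) and Sox11 (13.9 ± 0.662) came below these, and Sox1 (2.34 ± 0.332) and Sox5 (0.915 ± 0.106) were lowest. In siEgr2 the ranges of Sox2 (244 ± 8.85) and Sox10 (222 ± 6.18) overlapped, and Sox9 at 23.9 ± 2.40 stood below Sox6 at 30.2 ± 2.74, without overlap, where in siNC it had stood above it. The lengths matter for this order: per kilobase of the median coding transcript instead of all exons, Sox8 came first in siNC at 326, and Sox6 reached 93.8 in place of 25.4. By summed level per length, the SoxE genes made up 45.4% ± 1.16 of the 10 genes' total in siNC and 45.1% ± 0.62 in siEgr2 (SD, n = 6 each), and SoxB1 36.5% ± 0.985 and 35.3% ± 0.943; these shares depend on the lengths in the same way.

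Sox1, a SoxB1 gene expressed in neural progenitors, showed the largest change of the 10. It is a gene of 1 exon at chr8:12395295-12400126 on the plus strand (GENCODE M21, GRCm38). Its CPM in siNC ran from 9.24 to 13.4 with a median of 11.0, from 312 to 477 counts per library. In siEgr2 it ran from 3.89 to 7.30 with a median of 5.81, from 52 to 83 counts. Every siEgr2 library was below every siNC library. The log2 fold change was -0.99 (SE 0.15, 95% interval -1.30 to -0.68), a level 0.503 times that of siNC, with an adjusted p of 0.00014 by edgeR (range over all alternatives 1.95e-09 to 0.00829).

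Sox1 lies inside the noncoding gene Sox1ot on the same strand (chr8:12385771-12436768), with no shared exon base in the annotation; 1.78% of its own exon bases are also exon of Gm25239 on the same strand. Sox1ot was also called lower, from 3.59 ± 0.626 CPM in siNC to 2.07 ± 0.517 in siEgr2 (SD, n = 6 each; log2 fold change -0.79, edgeR adjusted p = 0.0109), with 12 to 34 counts per siEgr2 library. In libraries thinned to the smallest it was at -0.97 with an edgeR adjusted p of 0.112 and was not called, while 22 of 23 alternatives called it (range over all 0.00116 to 0.112). How reads of overlapping genes, or of either strand, were assigned is not stated, so the pair cannot be treated as separate measurements.

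Since the siRNA targets a transcription factor, the letters of the EGR binding motif, GCGNGGGCG, were searched on both strands in the RefSeq promoter windows (GRCm38.p6), with GTGGGCG, a shorter form that the longer motif holds when its N is T. Of the 10 genes 7 had windows, 12 windows in all, 6 of them for Sox6; Sox3, Sox9 and Sox10 had none. GCGNGGGCG stood in 1 of the 12 windows, that of Sox1, and in 5.55% of all 32851 windows. GTGGGCG stood in 1 of the 12, a Sox6 window, and in 7.97% of all. The core of the Sox motif, ACAANG, stood in 8 of the 12, in windows of 4 genes (Sox1, Sox2, Sox5 and Sox6), and in 41.2% of all. The first match in Sox1 is at chr8:12395304-12395312, 215 bases before the RefSeq start, on the strand of the gene; the other, on the opposite strand at chr8:12395486-12395494, is not printed. Both lie within the exon as GENCODE draws it. The beginning of the Sox1 window (chr8:12395269-12395324, plus strand) and the Sox6 window upstream of its start (chr7:116031048-116031297, minus strand, in an intron of the longer Sox6 transcripts) are shown because they hold these letters, in capitals. In the Sox6 window the match is on the strand opposite to the gene, so the capitals read CGCCCAC, the reverse complement of GTGGGCG. A match describes the letters only.
Sox1: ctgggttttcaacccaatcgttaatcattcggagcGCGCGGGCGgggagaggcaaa
Sox6: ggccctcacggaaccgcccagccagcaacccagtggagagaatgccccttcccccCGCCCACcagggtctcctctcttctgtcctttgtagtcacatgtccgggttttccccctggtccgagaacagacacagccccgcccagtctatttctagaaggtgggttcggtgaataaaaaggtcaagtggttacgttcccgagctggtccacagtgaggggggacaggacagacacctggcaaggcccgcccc

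The other SoxB1 genes were far more abundant and differed little. Sox2, a factor of progenitors and precursors (chr3:34650405-34652461, plus strand, 1 exon), lay between 444 and 504 CPM in siNC and between 471 and 520 in siEgr2. The groups overlapped, and the log2 fold change of 0.08 (95% interval 0.0020 to 0.16) had an edgeR adjusted p of 0.145. With library size only it was -0.10, above the median of all genes there. Sox3 (chrX:60891366-60893430, minus strand) lay between 56.0 and 64.6 CPM in siNC and between 57.1 and 70.2 in siEgr2. Its log2 fold change was 0.05 (95% interval -0.07 to 0.18), and -0.13 with library size only. With no filter on low counts Sox3 was at 0.0092 and Sox2 at 0.038, and without siEgr2 replicate 2 Sox3 was at 0.017. Among the SoxB1 genes per length, Sox1 was 0.895% ± 0.166 in siNC and 0.431% ± 0.0978 in siEgr2, and Sox2 was 87.9% ± 0.767 and 88.5% ± 0.827 (SD, n = 6 each).

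The noncoding host of Sox2, Sox2ot (chr3:34104270-34682619, plus strand), did not separate by group. In siNC it lay between 20.7 and 28.0 CPM, and siEgr2 replicates 2, 4, 5 and 6 lay between 22.2 and 29.6. siEgr2 replicates 1 and 3 held 83.0 and 84.4 CPM, from 1234 and 1366 counts. These were at least 2.80 times the highest of the other 10 libraries, and among 17117 genes with a summed count over 100 only 2, Sox2ot and Gm5824 (named after its values were seen), were at least 2 times higher in both libraries than in each of the others. Sox2 was also highest of its group in those libraries, by a much smaller margin, at 520 and 515 CPM beside 471 to 512 in the other siEgr2 libraries. The log2 fold change of 0.98 (SE 0.37) had an edgeR adjusted p of 0.0897 and was not called. DESeq2 called Sox2ot higher (log2 fold change 0.97, adjusted p = 0.0385), as 1 of 23 alternatives (range over all 0.0385 to 0.262). Sox2 and Sox2ot share no exon base in the annotation.

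**Figure D3:**
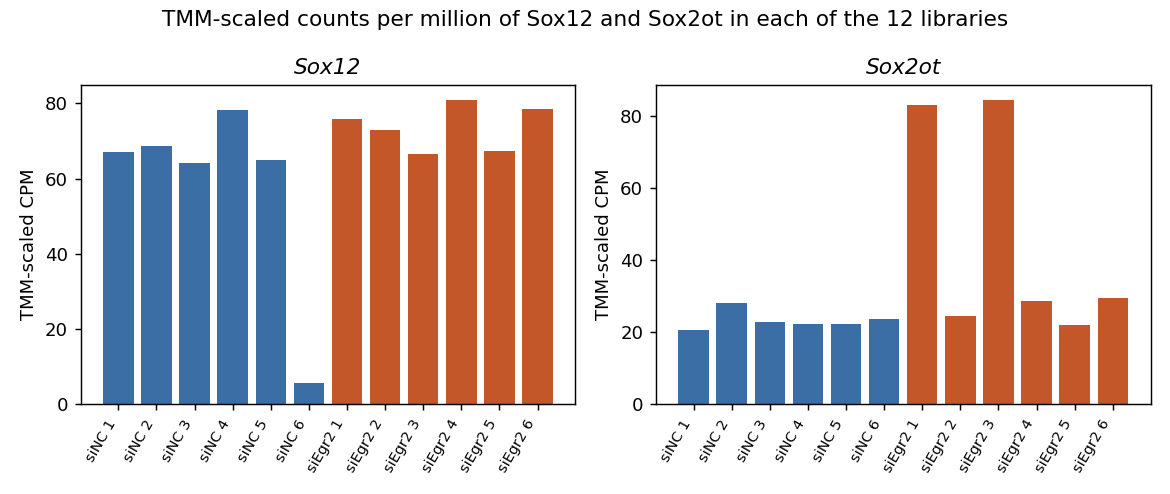
TMM-scaled CPM (vertical axes, from 0) of Sox12 and Sox2ot in each of the 12 libraries, siNC in blue and siEgr2 in orange. Sox12 is at 5.77 in siNC replicate 6, and Sox2ot is at 83.0 and 84.4 in siEgr2 replicates 1 and 3.

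Among the SoxE genes, Sox9 was lower in siEgr2 under each scaling. Sox8 and Sox10 were higher with TMM (0.14 and 0.16), RLE (0.15 and 0.17) and upper-quartile scaling (0.15 and 0.16), and with library size only they lay just below 0 and above the median of all genes. Sox9, which directs the onset of gliogenesis and is maintained in astrocytes, lies at chr11:112782224-112787760 on the plus strand. It ran from 119 to 136 CPM in siNC (median 133; 4039 to 5687 counts) and from 86.5 to 112 in siEgr2 (median 99.3; 706 to 1551 counts). No siEgr2 library reached the lowest siNC library. The log2 fold change of -0.40 (SE 0.06, 95% interval -0.53 to -0.27), or 0.76 times, had an edgeR adjusted p of 0.00021 and fell short of the fold threshold; with library size only it was -0.58 and was called, at -0.40 relative to the median of all genes.

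Sox10, the SoxE factor that myelin genes depend on, lies at chr15:79154908-79165240 on the minus strand. It ran from 584 to 633 CPM in siNC (median 598) and from 653 to 707 in siEgr2 (median 675). The groups did not overlap, and the log2 fold change was 0.16 (SE 0.03; edgeR adjusted p = 0.00114), and was -0.022 under library size only (adjusted p = 0.668; range over all alternatives 1.05e-05 to 0.668). Sox8, a close relative that shares part of the work of Sox10 (chr17:25565892-25570686, minus strand), lay between 297 and 313 CPM in siNC and between 323 and 346 in siEgr2. Its log2 fold change was 0.14 (SE 0.03; edgeR adjusted p = 0.00258), which was -0.038 under library size only and had an adjusted p of 0.0649 with no filter on low counts (range over all alternatives 2.14e-05 to 0.467). Of the exon bases of Sox8, 10.6% are also exon of 2810468N07Rik on the opposite strand.

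Ratios of 2 genes within a library do not depend on the scaling, and 6 of them were compared between groups by a two-sided exact permutation test over the 924 ways to divide the libraries, with p-values adjusted over the 6. The log2 ratio of Sox9 to Sox10 counts was -2.22 ± 0.10 in siNC and -2.78 ± 0.15 in siEgr2 (SD, n = 6 each). It was lower in every siEgr2 library than in any siNC library, by -0.56 (exact p = 0.00216, the smallest that 924 divisions can give, adjusted p = 0.00649). The test takes all libraries as exchangeable. Because the siEgr2 libraries were alike in pairs, the exact p-values of the ratios may be too small. The ratio of Sox9 to Sox8 differed likewise, from -1.22 ± 0.09 to -1.76 ± 0.17, by -0.55 (exact p = 0.00216, adjusted p = 0.00649). Sox8 to Sox10 was -0.998 ± 0.041 and -1.01 ± 0.06, a difference of -0.016 within the spread (exact p = 0.6, adjusted p = 0.6). Sox2 to Sox10 differed by -0.079 (exact p = 0.145, adjusted p = 0.218), with p = 0.0325 in the exact test without siNC replicate 4. Per length, Sox9 made up 9.64% ± 0.561 of the SoxE level in siNC and 6.78% ± 0.666 in siEgr2, Sox10 60.6% ± 0.765 and 62.8% ± 0.819, and Sox8 29.7% ± 0.55 and 30.4% ± 0.957. These shares depend on the lengths: per kilobase of the median coding transcript, Sox8 stood above Sox10 in siNC, at 326 beside 223 CPM, with Sox9 at 31.5.

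**Figure D4:**
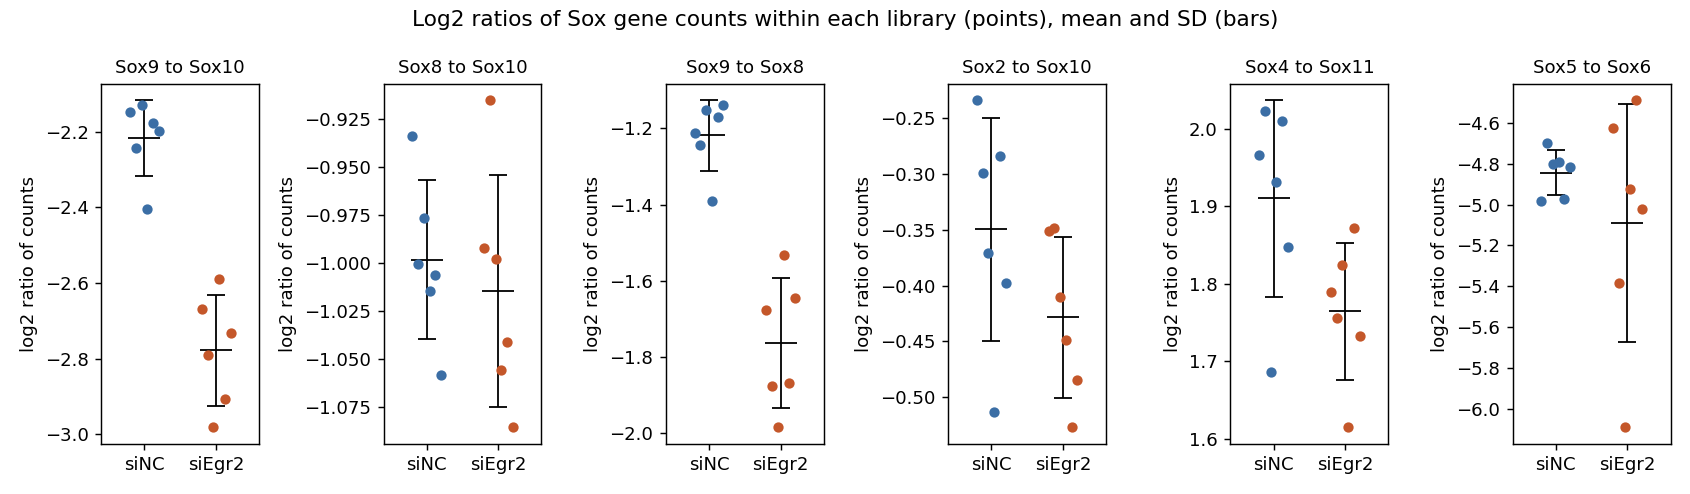
Log2 ratios of the counts of 6 pairs of Sox genes within each library (points), with the group mean and SD (bars); the vertical axes differ and do not start at 0. The ratios of Sox9 to Sox10 and of Sox9 to Sox8 do not overlap between siNC and siEgr2, and the other 4 ratios do.

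The SoxC genes, active in cells that have left the cycle and begun to differentiate, were both higher in siEgr2 at the adjusted p alone. Sox11 (chr12:27334264-27342574, minus strand) ran from 111 to 125 CPM in siNC (median 114) and from 139 to 171 in siEgr2 (median 142). It had the largest increase of the 10 genes under TMM, a log2 fold change of 0.36 (SE 0.05, 95% interval 0.24 to 0.47; edgeR adjusted p = 0.00021), and was past the adjusted p under each alternative run (0.0121 with library size only; range over all alternatives 9.72e-08 to 0.0121). Sox4 (chr13:28948919-28953713, minus strand) ran from 403 to 464 CPM in siNC and from 471 to 524 in siEgr2, with a log2 fold change of 0.21 (SE 0.04; edgeR adjusted p = 0.00123) that was 0.023 with library size only (adjusted p = 0.716; range over all alternatives 7.2e-05 to 0.716). Of its exon bases, 54.6% are also exon of Gm26735 on the opposite strand, so its counts are uncertain. The log2 ratio of Sox4 to Sox11 was 1.91 ± 0.13 in siNC and 1.76 ± 0.09 in siEgr2 (SD, n = 6 each), a difference of -0.15 with overlapping groups (exact p = 0.0476) that did not pass after adjustment over the 6 ratios (adjusted p = 0.0952).

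The SoxD genes lack a transactivation domain of their own and modulate other Sox proteins. Sox6 (chr7:115470872-116038796, minus strand) ran from 353 to 397 CPM in siNC (median 378) and from 407 to 525 in siEgr2 (median 438). The groups did not overlap, with siEgr2 replicate 2 standing above the others of its group. The log2 fold change was 0.25 (SE 0.05; edgeR adjusted p = 0.00247), or 0.20 without that library (adjusted p = 0.002), and 0.068 with library size only (adjusted p = 0.351; range over all alternatives 0.000295 to 0.351). Sox5 (chr6:143828425-144781977, minus strand) was scarce, from 11.3 to 14.9 CPM in siNC and from 6.30 to 19.1 in siEgr2. The siEgr2 libraries spread on both sides of the siNC range, and the log2 fold change of 0.06 had a 95% interval from -0.35 to 0.47; its sign turned with limma-voom, in thinned libraries and without siEgr2 replicate 1 or 5, and it was 0.21 without siEgr2 replicate 3, the lowest. It was -0.13 with library size only, above the median of all genes there. A difference of the size measured for Sox4, Sox6 or Sox10 lies inside the interval and cannot be told apart from 0 for Sox5. The log2 ratio of Sox5 to Sox6 was -4.84 ± 0.11 in siNC and -5.09 ± 0.58 in siEgr2 (exact p = 0.392, adjusted p = 0.47). Its difference between the groups, -0.24, was -0.044 without siEgr2 replicate 3 and -0.37 without siEgr2 replicate 5 (exact p = 0.784 and 0.139).

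Of 9 other Sox genes 4 were tested, and edgeR called 1 lower and 0 higher, DESeq2 1 and 0, and limma-voom 0 and 0, with 2 lower and 0 higher at an unadjusted p under 0.05. The called gene was Sox7, a SoxF gene of vascular cells, at 9.85 ± 4.42 CPM in siNC and 3.65 ± 1.05 in siEgr2 (SD, n = 6 each; log2 fold change -1.42, edgeR adjusted p = 0.0028); limma-voom did not call it. Sox13, a SoxD gene, was lower at the adjusted p alone (log2 fold change -0.42, adjusted p = 0.0136, edgeR) and was called with library size only. Sox21, a SoxB2 gene, was abundant at 138 ± 7.99 and 141 ± 8.81 CPM, with a log2 fold change of 0.03. With library size only it was -0.15 and lower past the adjusted p, though at 0.03 relative to the median of all genes. Sox12, the third SoxC gene, lay between 64.2 and 78.2 CPM in siNC replicates 1 to 5 and between 66.5 and 80.8 in siEgr2. In siNC replicate 6 it was at 5.77 CPM, from 241 counts, which left a log2 fold change of 0.34 (SE 0.45) with all libraries and 0.10 without that library (edgeR adjusted p = 0.659 and 0.337). Sox14 and Sox17 had no count in any library, which allows up to between 0.0762 and 0.373 CPM depending on the library (3 counts of its total), and Sox15, Sox18 and Sox30 had 4, 2 and 30 counts in all.

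The genes whose centred log2 CPM over the 12 libraries lay closest to that of a Sox gene were sought among 9065 genes of at least 4 in mean log2 CPM. For Sox9 they were Hepacam, Plat and Entpd5, with mean absolute differences of 0.06, 0.06 and 0.06 and log2 fold changes of -0.46, -0.32 and -0.42. For Sox10 they were Grik3, G3bp1 and Sdc3 (0.02, 0.03 and 0.03), and for Sox2 Lsm14a, St13 and Gnl3l (0.03, 0.04 and 0.04).

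Of 23 transcription factors known as partners of Sox proteins in glia, all tested, 1 was called higher and 2 lower, with a median log2 fold change of -0.0022. Over all genes tested, 2.63% were called higher and 5.08% lower. Pou3f1, a POU factor that works with Sox proteins in myelinating glia, rose by 0.71 on the log2 scale (edgeR adjusted p = 0.000205). Id4 and Hes1, which hold back differentiation, fell by 0.57 and 0.75 (edgeR adjusted p = 3.85e-05 and 0.0149). At the adjusted p alone 5 were higher and 3 lower, among the former the OL lineage factors Olig1 (0.26) and Olig2 (0.28) and among the latter Myrf (-0.19), which drives myelin genes. With library size only Olig1 (0.077) kept its sign and lost the adjusted p, Olig2 (0.095) kept both, and Nkx2-2, higher at 0.17 with TMM, was at -0.010, which is 0.17 relative to the median of all genes.

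Of 15 known Sox10 targets, a list that holds Sox8 itself, 14 were tested. Of these 2 were called higher and 0 lower, with a median log2 fold change of -0.03. The called genes were the precursor genes Pdgfra, a growth factor receptor (522 ± 33.9 CPM in siNC, 767 ± 26.9 in siEgr2; SD, n = 6 each), and Cspg4, the NG2 proteoglycan (223 ± 15.1 and 330 ± 13.6). Their log2 fold changes were 0.56 and 0.56 under TMM. With library size only, where the median of all genes was -0.18, they were 0.37 and 0.38. Both were past the adjusted p there (edgeR, 2.02e-05 and 1.11e-05) but short of the fold threshold, so neither was called. Sox10 was higher with TMM, while the myelin genes Mbp (-0.28) and Pmp22 (-0.49) were lower under both scalings and passed the adjusted p alone with TMM (edgeR adjusted p = 0.000228 and 0.00562). DESeq2 and limma-voom also called 0 of these targets lower, and at an unadjusted p under 0.05 there were 3 higher and 5 lower. With library size only 0 were called higher and 2 lower, Pmp22 (-0.67) and Egr2 (-0.70). Of 15 known Sox9 targets of astrocytes and cartilage 13 were tested, with 2 called lower (the matrix genes Col2a1, -1.38, and Matn4, -0.65) and 0 higher. These 2 genes were scarce and their groups overlapped: Col2a1 had means of 1.94 CPM in siNC and 0.753 in siEgr2, and Matn4 3.97 and 2.57. DESeq2 called 2 of the targets lower and 0 higher, and limma-voom 1 and 0. The most abundant of the targets, here and in the lists that follow the gene with the highest CPM with no account of length, was Col11a1, a fibrillar collagen gene. It was higher at the adjusted p alone (log2 fold change 0.27, edgeR adjusted p = 5.83e-06), but not with library size only (0.093, adjusted p = 0.0909). The median of the Sox9 targets was -0.15, beside 0.00 for all genes tested, and 2 of the 13 were higher and 5 lower at an unadjusted p under 0.05. The summed CPM of the list was higher in siEgr2. It ran from 2609 to 2730 in siNC (median 2636) and from 2822 to 3092 in siEgr2 (median 2931). Col11a1 had means of 1758 CPM in siNC and 2125 in siEgr2, beside means of 2658 and 2951 for the list. Col11a1 rose by more than the list did, so the summed mean of the other targets was lower in siEgr2.

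Of 10 astrocyte markers 5 were called lower and 0 higher, with a median log2 fold change of -0.58; DESeq2 and limma-voom each called 6 lower and 0 higher, and at an unadjusted p under 0.05 there were 7 lower and 0 higher. The largest decreases were in Slc1a3 and Slc1a2, the glial glutamate transporters (-0.85 and -0.61), Aqp4, a water channel (-0.80), and Aldh1l1 (-0.74). Gfap, the intermediate filament gene, was the most abundant at 4777 ± 205 CPM in siNC and 3242 ± 152 in siEgr2 (SD, n = 6 each; log2 fold change -0.56). The summed CPM of the list ran from 8170 to 8865 in siNC (median 8568) and from 5237 to 5906 in siEgr2 (median 5677), and no marker of it was at 0. Both Sox9 and the summed CPM of this list, more than 50% of it Gfap, were lower in every siEgr2 library than in any siNC library. The markers S100b (-0.02), Fgfr3 (-0.11) and Gjb6 (-0.44) overlapped between the groups, and the others did not. In bulk RNA fewer cells of a type and less RNA per cell cannot be told apart, and the part of astrocyte RNA in the values of Sox9 was not tested.

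Of 10 neural progenitor markers, a list that holds Sox1 and Sox3 themselves, 3 were called lower (Sox1, Fabp7 at -0.57 and Prom1 at -0.53) and 0 higher. DESeq2 and limma-voom also called 3 lower and 0 higher, and at an unadjusted p under 0.05 there were 6 lower and 0 higher. The most abundant was Vim, an intermediate filament gene, with a log2 fold change of -0.29, and the summed CPM ran from 3512 to 4014 in siNC (median 3752) and from 2816 to 3155 in siEgr2 (median 3034). The part of progenitor RNA in the values of Sox1 was not tested. Of 10 precursor markers 2 were called higher, Pdgfra and Cspg4, and 1 lower, Matn4, with a median of 0.27 (0.09 with library size only, where 0 were called higher and 1 lower). At the adjusted p alone 7 were higher and 1 lower, and at an unadjusted p under 0.05 there were 8 and 1; DESeq2 called 3 higher and 1 lower, and limma-voom 2 and 1. Their summed CPM ran from 4707 to 5054 (median 4950) and from 5851 to 6014 (median 5936), with Olig1 the most abundant.

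Of 10 newly formed OL markers 9 were tested and 0 called by edgeR, with 3 higher and 3 lower at an unadjusted p under 0.05 and 0 called by DESeq2 or limma-voom. Their median was -0.03, and Bcas1 was the most abundant (log2 fold change 0.34, edgeR adjusted p = 0.13). Their summed CPM ran from 3646 to 4055 in siNC (median 3871) and from 3795 to 4898 in siEgr2 (median 4348). Of 10 myelinating OL markers 0 were called as well, by edgeR, DESeq2 or limma-voom, with 0 higher and 6 lower at an unadjusted p under 0.05 and a median of -0.14. Mbp was at 1830 ± 134 CPM in siNC and 1510 ± 53.0 in siEgr2 (SD, n = 6 each), and the summed CPM of the list ran from 7721 to 8847 (median 8140) and from 7294 to 7609 (median 7421). Both precursor and myelin genes were thus present in the cultures.

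Of 10 microglia markers 4 were tested and 0 called by edgeR, DESeq2 or limma-voom, with 0 at an unadjusted p under 0.05. Aif1 and Itgam were at 0 in every library, and the sums ran from 25.2 to 31.1 (median 29.5) and from 21.6 to 32.2 (median 24.7). Of 10 endothelial markers 3 were tested, with 1 called lower, Flt1 (-1.35, named after its values were seen), Cldn5 and Sox17 at 0, Pecam1 at 28 counts in all, and Kdr the most abundant (25.6 ± 3.05 and 28.2 ± 2.11 CPM). Their sums ran from 26.1 to 35.4 (median 30.5) and from 28.2 to 38.0 (median 31.1). Of 10 fibroblast and pericyte markers 9 were tested, with 3 called lower (Rgs5 at -0.78, Acta2 at -0.57 and Pdgfrb at -0.56) and 1 higher, Cspg4, which precursors also express (4 lower and 0 higher with library size only). Col1a1 led them at 336 ± 59.8 and 301 ± 16.4 CPM, with sums from 1131 to 1685 (median 1384) and from 1226 to 1431 (median 1325).

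Of 10 neuron markers 9 were tested, with 1 called lower, Stmn2 (-0.91), and Map2 the most abundant (308 ± 106 and 362 ± 99.1 CPM). Their sums ran from 460 to 722 (median 486) and from 476 to 723 (median 540). Of 10 ependymal markers 6 were tested and 0 called by edgeR, DESeq2 or limma-voom (0 higher and 3 lower at an unadjusted p under 0.05), though with library size only 3 were called lower, with Foxj1 the most abundant at 69.2 ± 6.30 and 49.4 ± 3.99 CPM and sums from 68.9 to 89.2 (median 80.0) and from 50.8 to 63.7 (median 56.6). Of 10 Schwann cell markers 7 were tested, with 1 called higher, Pou3f1, and Cdh19 the most abundant (26.5 ± 1.97 and 28.0 ± 4.79 CPM). Their sums ran from 49.1 to 56.0 (median 53.5) and from 54.3 to 70.0 (median 62.6). The part of these cell types in the values of the Sox genes was not tested.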

How the data were processed

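The authors deposited raw counts per gene symbol for 12 libraries, without normalization; the submitters' processing notes name mm10, and the aligner, the counting program and the handling of strand and of overlapping genes are not given in the sources used here. Reads were 50 bp according to the methods. The table held 56860 named genes and 1 entry without a name, which was left out. Each library was grouped by its title, and within a group no library was a copy of another (chi-square per gene 7.56 to 39.8 over 30 pairs). Some were much closer than others. In siEgr2 the chi-square was 8.77 for replicates 1 and 2, 8.70 for 3 and 5, and 7.56 for 4 and 6. The other siEgr2 pairs lay between 13.3 and 27.4. Rn18s-rs5 shares paired alike, at 13.82% and 13.87%, 10.52% and 10.73%, and 16.33% and 16.53%. Whether such pairs share a culture is not stated, so the 6 libraries may not be independent.

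Differences were tested on the counts with edgeR 4.0.16 under R 4.3.3 (filterByExpr, TMM, quasi-likelihood test, robust, no covariate, Benjamini-Hochberg adjustment over 16600 genes), after the fit had been tested on simulated data. The common biological coefficient of variation was 0.17. Alternatives used DESeq2 1.42.0, limma 3.58.1, other scalings and filters, thinning, and leaving out each library. Ratios used a pseudocount of 0.5 and exact permutation tests (NumPy 2.4.6, SciPy 1.17.1). Lengths and positions came from GENCODE M21 and promoter windows from RefSeq. Intervals from a count of 0 cover counting error only.

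The 10 members and the gene lists were chosen with earlier results of these data known. Named were all members, Egr2, the other Sox genes, of each list the most abundant tested gene and up to 4 called genes with the largest change at a mean log2 CPM of at least 2, partner and target genes of the same lists, and for Sox2, Sox9 and Sox10 the 3 genes most alike. Host and antisense transcripts of Sox genes formed a further list of 7, of which 3 were tested (Sox1ot and Sox2ot, and Sox6os with 111 counts in all). Of these edgeR called 1 lower and 0 higher, DESeq2 1 and 1, and limma-voom 1 and 0, with 1 lower and 1 higher at an unadjusted p under 0.05. Some genes that this rule names are not reported here.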

Additional observations from a re-analysis of the deposited data

Results flagged for a closer look

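In groups of 6 libraries, single values were looked at again where they stood far from the rest of their group; chance alone gives about 1 such value in 20 groups, and 4 of the 106 groups examined held one. Sox12 was at 5.77 CPM in siNC replicate 6, where the other siNC libraries lay between 64.2 and 78.2, a level 0.0841 times their mean. Among 10973 genes with more than 200 counts in each of those other siNC libraries, 7 were lower than their mean by 4 times or more in replicate 6. Sox6 was at 525 CPM in siEgr2 replicate 2, where the others lay between 407 and 451. Aldh1l1 was at 178 CPM in siNC replicate 2 (others 216 to 235), and its log2 fold change without that library was -0.80. Map2 was at 523 CPM in siNC replicate 2 (others 251 to 277), and its log2 fold change of 0.23 was 0.45 without that library (edgeR adjusted p = 0.0984).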

How the results depend on the processing

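Sox1 was called lower and Sox9 was lower past the adjusted p under each alternative for scaling, tool, filter, depth and left-out library. No Sox gene was called higher in any of these fits, and 5 were with no fold threshold. The Sox genes called lower numbered 2 with library size only, 2 with no fold threshold and 0 beyond a log2 fold change of 1. Those past the adjusted p alone numbered 3 with library size only and 6 with no filter, where Sox8 missed it. All genes called numbered 1281, against 1974 with library size only, 3300 with no fold threshold and 373 beyond a log2 fold change of 1. With library size only, where the median of all genes was -0.18, the log2 fold change of Egr2 was -0.70, past the adjusted p, and Sox2 (-0.10), Sox3 (-0.13), Sox5 (-0.13), Sox8 (-0.038) and Sox10 (-0.022) were below 0 but above that median; with TMM they were above 0 and above the median. With library size only after removal of the structural RNA genes (chosen after seeing the data), they were 0.10, 0.08, 0.08, 0.17 and 0.18. Sox5 also turned to -0.067 with limma-voom and -0.027 in thinned libraries; the cause was not tested. The difference between the groups in the log2 ratio of Sox4 to Sox11 was -0.073 in thinned libraries (exact p = 0.247).

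Leaving out each library in turn gave 0 Sox genes called higher, 1 called lower, 7 past the adjusted p and 1114 to 1339 genes called. The log2 fold change of Egr2 then ran from -0.60 to -0.39 and that of Sox5 from -0.052 to 0.21, below 0 without siEgr2 replicate 1 (-0.0081) or 5 (-0.052). The difference between the groups in the log2 ratio of Sox2 to Sox10 ran from -0.11 (exact p = 0.0325, without siNC replicate 4) to -0.055, and that of Sox4 to Sox11 from -0.19 to -0.12, with exact p-values between 0.00649 and 0.0952; with 5 libraries in a group the exact test has fewer assignments.

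Replicate numbers are shared between groups but did not pair the samples: deviations of samples with the same number correlated between -0.021 and 0.052. With the replicate number as a block, 1124 genes were called, 1 Sox gene was called lower, 7 passed the adjusted p and the log2 fold change of Egr2 was -0.52; for the difference in the log2 ratio of Sox4 to Sox11 (-0.15) the exact sign-flip p was 0.125. In the siEgr2 libraries Sox1 had at most 83 counts, Egr2 at most 65 and Sox5 at most 245. Thinned to the smallest library, Sox1 was called lower and Sox1ot was not.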

Other observations

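Of 11 structural RNA genes listed, 10 were in the table and tested, and edgeR called all 10 higher in siEgr2, with a median log2 fold change of 3.95 (3.76 with library size only). Their summed CPM ran from 1830 to 10482 in siNC (median 6825) and from 110413 to 184637 in siEgr2 (median 151121). Rn18s-rs5 was the most abundant (log2 fold change 4.50), and the largest differences were those of AY036118 (6.77) and Mir6236 (5.81).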
